A study of Rattus norvegicus with 35 samples.

Results

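The genes described here are the synaptotagmins, syntaxins and vesicle-associated membrane proteins (VAMPs) expressed in the rat hippocampus, the machinery that fuses vesicles with their target membranes. They were chosen by name, as the genes called Syt, Stx or Vamp with a number and at most 1 further letter. The 35 described here, among 15059 genes in the count table, are made up of 15 Syt, 13 Stx and 7 Vamp genes, and 33 were among the 14411 genes that passed the filter on low counts. Stx11, a syntaxin of immune cells, and Vamp5, known from muscle, did not pass. Their levels over the 35 libraries had medians of 0.753 and 0.506 CPM (1 CPM is 1 count in each M counts of a library, M for mega), and they were not among the 33 tested.

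A vesicle fuses when a SNARE protein on the vesicle, such as a VAMP, zippers with a syntaxin and a SNAP protein on the target membrane. Synaptotagmins sit on vesicles, and those that bind calcium tie fusion to the calcium that enters with an action potential. In the hippocampus this machinery releases glutamate and GABA at synapses, sends receptors to the postsynaptic membrane, and lets dense-core vesicles secrete neurotrophins, while other syntaxins and VAMPs serve endosomes, the Golgi apparatus and the endoplasmic reticulum.

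RNA was sequenced from the hippocampus of female Sprague Dawley rats in 7 groups of 5 libraries, 35 in all. All rats had surgery at 6 months of age, either removal of the ovaries or a sham operation that left them in place. After 2 weeks of washout, ovariectomised rats received 1 daily intraperitoneal injection, and tissue was taken at 7 days of treatment. They were given vehicle, estradiol at 0.16 mg per kg, tamoxifen at 3.23, raloxifene at 9.68, exemestane at 0.16 or anastrozole at 4.03 mg per kg. Doses are those of the labels, which give exemestane the dose of estradiol, and they could not be checked here. Tamoxifen and raloxifene are selective estrogen receptor modulators, and exemestane and anastrozole inhibit aromatase, the enzyme that makes estrogens. Ovariectomy is thus shared by all groups but sham, and the 6 comparisons with vehicle use the same 5 vehicle libraries. The labels do not tie libraries to named animals, so p-values measure the spread between these libraries. In whole tissue, fewer cells of a type and less RNA per cell cannot be told apart.

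Libraries held 5.58 to 12.09 M counts. The factors by which the authors scaled each gene split them into 2 classes, which no label names. Class A held 20 libraries, all 5 sham, all 5 estradiol, 4 vehicle, 3 anastrozole, 2 tamoxifen and 1 exemestane. Class B held 15, all 5 raloxifene, 4 exemestane, 3 tamoxifen, 2 anastrozole and vehicle replicate 4. The RNA of the signal recognition particle, Rn7sl1, made up 4.47 to 6.49% of the counts of class A libraries and 2.90 to 3.84% of those of class B. Class and drug are therefore partly confounded, and members called in a comparison are given without and with class as a term in the model. Separately, sham replicate 1 stood apart in some markers of the thalamus, which borders the hippocampus. Its Tcf7l2 was at 90.8 CPM against 8.78 to 15.4 in the other 34 libraries, and its Slc17a6 at 136 against 10.7 to 29.7. Of 9 such markers, 4 were above all other 34 libraries, and 2, Prkcd and Ramp3, were below the other sham libraries.

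Raloxifene was the comparison with the most members called. Against vehicle, 6 of 33 members (18.2%) passed at an adjusted p of 0.05 in edgeR's quasi-likelihood test, where 24.8% of all tested genes did. Of these, 5 were higher and 1 lower, beside 13.4% and 11.4% of all genes. Exemestane had 3 members called (9.09%), 2 higher and 1 lower, beside 6.51% of all genes (4.06% and 2.45%). Across all 7 groups at once, 9 members (27.3%) differed, beside 37% of all genes. The test over all groups had its smallest p for Vamp4 and Stx7 (edgeR adjusted p = 0.00075 and 0.000902), then Syt1, Syt7 and Syt4 (0.00362, 0.00464 and 0.00527). These shares lie near those of all genes and are no result about the members in particular. In sham, estradiol, tamoxifen and anastrozole against vehicle edgeR called 0 members, and so did DESeq2, while 6, 0, 5 and 1 of them had an unadjusted edgeR p under 0.05 (18.2, 0, 15.2 and 3.03%), beside 6.81, 9.13, 16.4 and 2.87% of all genes. The shares of all genes called there were 0%, 0.00694%, 0% and 0%. With library class as a term, edgeR called 0 members in each of the 8 comparisons between groups and in the test of any difference. The shares of all genes were then 0.0416% in sham, 0.298% in estradiol, 0.00694% for raloxifene, 0.0278% between exemestane and anastrozole, 0.0278% for any difference and 0% in the 4 other comparisons. Members with an unadjusted p under 0.05 then numbered 7 in sham, 3 in anastrozole, 2 between exemestane and anastrozole, 1 each for tamoxifen, raloxifene and any difference, and 0 in the other comparisons. In sham, anastrozole and exemestane against anastrozole these were 21.2, 9.09 and 6.06% of members, beside 10.1, 7.55 and 12.8% of all genes. For tamoxifen and raloxifene against vehicle they were 3.03% each, beside 8.4 and 5.3% of all genes. In estradiol, exemestane and tamoxifen against raloxifene, with 0 members, 10.2, 6.97 and 4.07% of all genes had such a p. The share of all genes for any difference is not given here.

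**Figure D1:**
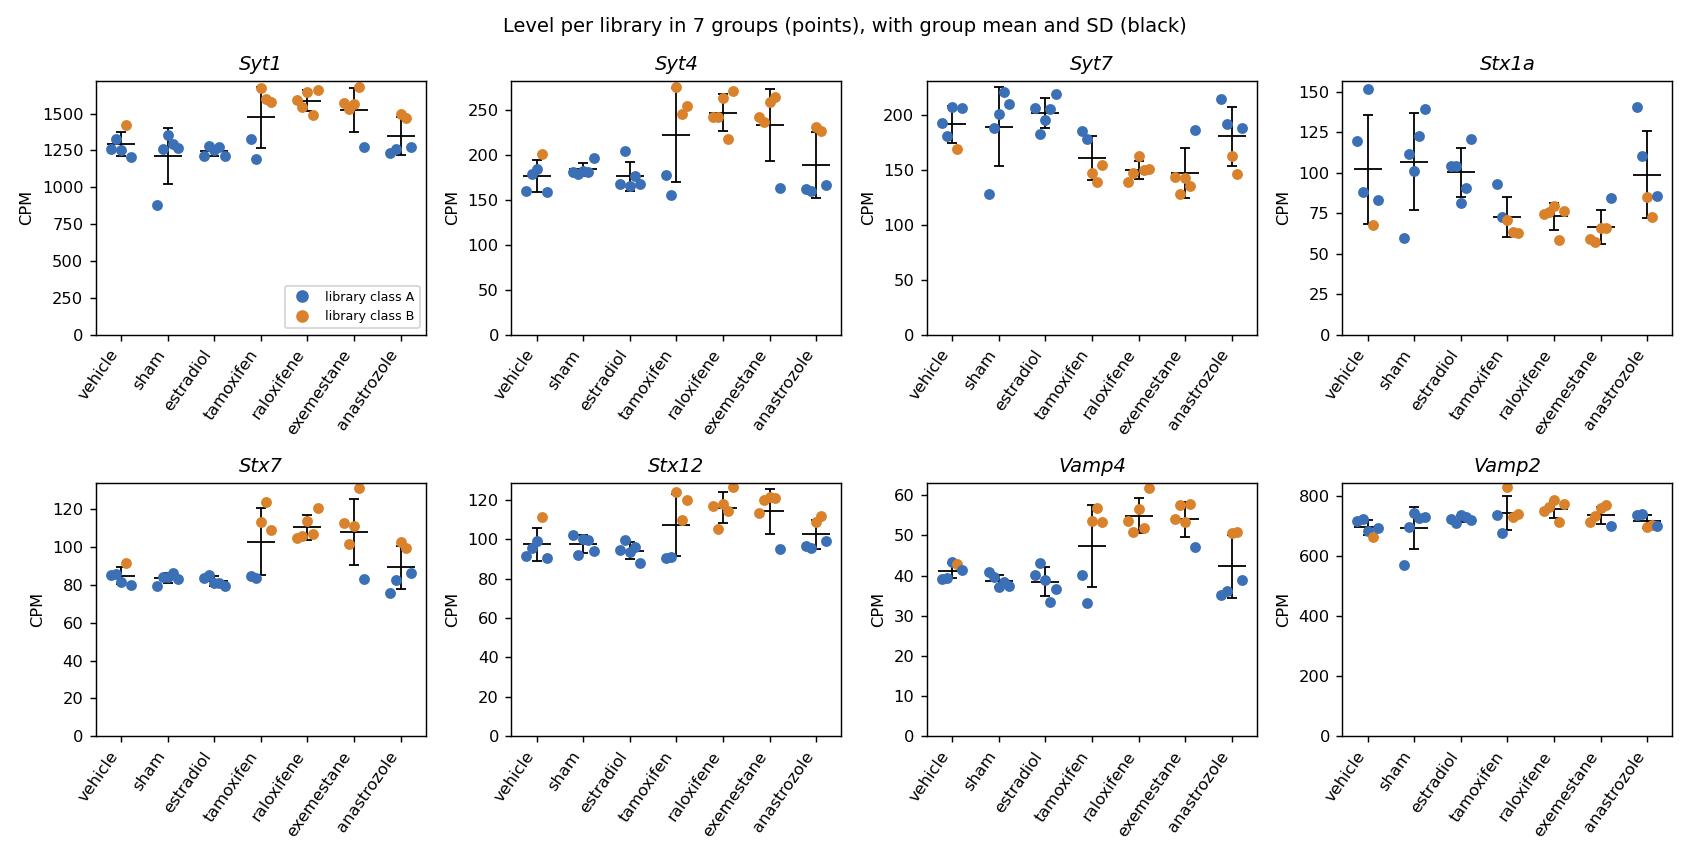
CPM (vertical axes, from 0) of 8 members in each of the 35 libraries, by group, with points coloured by library class and black bars for the group mean and SD (n = 5). Syt1, Syt4, Stx7, Stx12 and Vamp4 sit high, and Syt7 and Stx1a low, in the class B libraries of each drug group, and the class A libraries of tamoxifen, exemestane and anastrozole sit near vehicle, while Vamp2 overlaps between the classes.

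Among the calcium-sensing synaptotagmins, Syt1, the sensor for fast synchronous transmitter release, was higher in raloxifene. Its level was 1262, 1327, 1255, 1423 and 1205 CPM in the 5 vehicle libraries and 1590, 1544, 1650, 1491 and 1662 CPM in raloxifene. Every raloxifene library was above every vehicle library, and the highest vehicle library was replicate 4, the class B member of that group. The log2 fold change was 0.29 ± 0.0923 (SE, n = 5 per group, edgeR adjusted p = 0.0232), and 0.07 ± 0.0782 with class (adjusted p = 0.975). Tamoxifen showed the class split within a group, with 1326 and 1189 CPM in its class A libraries and 1674, 1602 and 1581 CPM in class B. Over all 35 libraries Syt1 spanned 880 to 1353 CPM among class A and 1423 to 1677 CPM among class B, so the classes did not overlap.

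Syt7, a high-affinity sensor for slower, asynchronous release and for synaptic facilitation, moved the other way. It was at 193, 181, 208, 169 and 207 CPM in vehicle and at 139, 147, 163, 150 and 151 CPM in raloxifene. In exemestane it was at 144, 128, 143, 136 and 187 CPM, the last of these being the class A library. The raloxifene libraries all lay below vehicle, while the fifth exemestane library lay within the vehicle range. The fold was -0.35 ± 0.113 in raloxifene (edgeR adjusted p = 0.0253) and -0.38 ± 0.113 in exemestane (adjusted p = 0.0458). With class these were -0.08 ± 0.101 and -0.18 ± 0.0943 (adjusted p = 0.984 and 0.732).

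Syt2, the counterpart of Syt1 in fast-firing neurons, was at 19.7, 19.8, 37.5, 19.2 and 24.5 CPM in vehicle and at 19.5 to 23.2 CPM in raloxifene. Its level in sham was 115, 21.2, 29.3, 23.2 and 18.6 CPM, where replicate 1 alone lay outside the range of the other groups. Syt9, another fast sensor, likewise had 11.6 CPM in sham replicate 1 and 1.48 to 4.58 in the other 34 libraries. Syt6, known from the acrosome reaction of sperm, had 25.9 CPM there and 6.74 to 14.2 elsewhere. Syt3, a high-affinity sensor involved in removing AMPA receptors from synapses, was at 46.0 to 59.5 CPM in vehicle and 40.1 to 48.2 in raloxifene, a fold of -0.26 ± 0.104 that did not pass (edgeR adjusted p = 0.0643) and was 0.03 ± 0.079 with class. Syt5, of dense-core and synaptic vesicles, had folds of 0.20 ± 0.101 in estradiol and 0.13 ± 0.101 in anastrozole, neither past the threshold (adjusted p = 0.545 and 1). Syt10, known in mouse olfactory neurons for release of insulin-like growth factor, ran from 2.13 to 8.46 CPM and was called in no comparison.

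Among the synaptotagmins without calcium-dependent membrane binding is Syt4, a protein of dense-core vesicles that carry brain-derived neurotrophic factor and a gene that responds to activity. Syt4 was at 160, 179, 185, 201 and 159 CPM in vehicle and at 242, 242, 264, 218 and 271 CPM in raloxifene. Exemestane had 243, 237, 259, 265 and 164 CPM and tamoxifen 178, 156, 277, 246 and 255 CPM. Raloxifene lay wholly above vehicle, and in exemestane and tamoxifen all class B libraries lay above vehicle, while the class A libraries lay within its range or, for tamoxifen replicate 2, below it. The raloxifene fold was 0.49 ± 0.129 (edgeR adjusted p = 0.0136) and 0.08 ± 0.0769 with class (adjusted p = 0.97). The fold was 0.40 ± 0.13 in exemestane (adjusted p = 0.0525) and 0.33 ± 0.13 in tamoxifen (adjusted p = 0.236), neither past the threshold, and with class 0.08 ± 0.0722 and 0.09 ± 0.0685. Sham libraries were at 182, 179, 182, 182 and 197 CPM, all inside the range of the vehicle libraries.

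Syt11, which restrains membrane retrieval at endings, varied little, from 852 to 1019 CPM over the 35 libraries. Its folds against vehicle ran from -0.07 ± 0.0454 in sham to 0.08 ± 0.0454 in raloxifene (edgeR adjusted p = 0.877 and 0.181). Syt17, known for a part in neurite growth, had the smallest p of the members in anastrozole, at a fold of 0.20 ± 0.0927 (edgeR adjusted p = 1). It lay at 75.3, 68.2, 57.7, 57.9 and 59.2 CPM in vehicle and at 69.9 to 75.5 CPM in anastrozole, ranges that overlap. Syt14 had folds of -0.20 ± 0.1 in estradiol and -0.16 ± 0.0983 in anastrozole (adjusted p = 0.545 and 1). Syt12, Syt13 and Syt16 were called neither in a comparison between groups nor between the classes.

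Of the syntaxins of the plasma membrane, the neuronal Stx1a, a target-membrane partner of Vamp2 in transmitter release, ranged from 57.0 to 152 CPM over the 35 libraries. Vehicle libraries were at 120, 87.9, 152, 67.9 and 82.9 CPM, exemestane at 58.8, 57.0, 66.0, 65.7 and 84.1 CPM and tamoxifen at 92.8, 72.9, 70.7, 63.6 and 62.7 CPM. The ranges overlapped, and the folds of -0.62 ± 0.201 in exemestane and -0.49 ± 0.201 in tamoxifen did not pass (edgeR adjusted p = 0.0545 and 0.24). With class they were -0.32 ± 0.199 and -0.28 ± 0.188 (adjusted p = 0.797 and 0.742). Stx2, Stx3 and Stx4, of secretion outside the fast synapse, were called in no comparison between groups. Stx4, best known for moving glucose transporters to the cell surface, had a fold of 0.23 ± 0.1 in sham (edgeR adjusted p = 0.653).

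Among the syntaxins of endosomes, Golgi apparatus and endoplasmic reticulum, Stx7 of late endosomes and Stx12 of recycling endosomes were higher in raloxifene. Stx7 was at 85.4, 86.0, 81.4, 91.8 and 80.1 CPM in vehicle and at 105, 106, 114, 107 and 121 CPM in raloxifene. Exemestane had 113, 102, 111, 131 and 83.1 CPM, where the fifth, of class A, fell inside the vehicle range and the other 4 above it. The fold was 0.38 ± 0.0958 in raloxifene (edgeR adjusted p = 0.0127) and 0.34 ± 0.0961 in exemestane (adjusted p = 0.0445). With class these were 0.10 ± 0.0677 and 0.13 ± 0.0637 (adjusted p = 0.964 and 0.732). Class A libraries held Stx7 at 75.5 to 86.5 CPM and class B libraries at 91.8 to 131.

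Stx12 was at 91.6, 95.6, 99.0, 111 and 90.3 CPM in vehicle and at 117, 105, 118, 114 and 127 CPM in raloxifene. Vehicle replicate 4 was the library that reached into the raloxifene range. The fold was 0.25 ± 0.0793 (edgeR adjusted p = 0.0236) and 0.03 ± 0.056 with class (adjusted p = 0.991), and the classes again did not overlap, at 87.8 to 102 CPM for A and 105 to 127 for B. Stx6, of the trans-Golgi network, had the smallest p of the members in sham, with 114, 114, 125, 139 and 133 CPM beside 136, 130, 148, 146 and 151 CPM in vehicle. These ranges overlap, and the fold of -0.19 ± 0.0589 did not pass (edgeR adjusted p = 0.461). Stx5 and Stx16 of the Golgi apparatus, Stx8 of late endosomes, Stx17 of autophagosomes and Stx18 of the endoplasmic reticulum were called in no comparison between groups.

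Of the VAMPs, Vamp4, which serves traffic between endosomes and the trans-Golgi network and a vesicle pool of bulk endocytosis, was higher in both raloxifene and exemestane. It was at 39.2, 39.3, 43.3, 42.9 and 41.4 CPM in vehicle, at 53.6, 50.8, 56.7, 51.9 and 61.7 CPM in raloxifene and at 54.1, 57.6, 53.2, 57.8 and 47.1 CPM in exemestane. All libraries of both drug groups were above all vehicle libraries, including vehicle replicate 4 of class B and exemestane replicate 5 of class A. The fold was 0.42 ± 0.109 in raloxifene (edgeR adjusted p = 0.0132) and 0.39 ± 0.11 in exemestane (adjusted p = 0.045). With class the folds were 0.11 ± 0.0855 and 0.16 ± 0.0799 (adjusted p = 0.966 and 0.732). Tamoxifen libraries were at 40.1 and 33.2 CPM in class A and at 53.6, 56.8 and 53.3 CPM in class B.

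Vamp2, the VAMP of most hippocampal synaptic vesicles, was called in no comparison. It was at 717, 725, 684, 664 and 693 CPM in vehicle and 712 to 786 CPM in raloxifene, a fold of 0.12 ± 0.0578 (edgeR adjusted p = 0.12), and the groups overlap. Vamp1, its counterpart in brainstem, spinal and fast-spiking neurons, was at 166, 161, 169, 146 and 173 CPM in vehicle and at 149 to 161 CPM in raloxifene. In sham it was at 389, 151, 175, 170 and 161 CPM, with replicate 1 above every other library. Vamp3, of recycling endosomes, had a fold of -0.21 ± 0.105 in estradiol that did not pass (edgeR adjusted p = 0.545). Vamp7 and Vamp8, of late endosomes and lysosomes, were called in no comparison.

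The promoters of the 3 genes that were higher in raloxifene with the largest folds are shown first, followed by that of Vamp1. Each is the RefSeq sequence (GRCr8) from 250 bases before to 50 after the gene's start, in the direction of the gene, and 27 of the 35 members had such an entry. Capitals mark the GC box (GGGCGG, or CCGCCC on the other strand) and the cAMP response element TGACGTCA. Syt4 lies at chr18:23320814-23321113 on the minus strand, Stx7 at chr1:23056416-23056715 on the minus strand, Vamp4 at chr13:77453070-77453369 on the plus strand and Vamp1 at chr4:159698644-159698943 on the plus strand.
Syt4: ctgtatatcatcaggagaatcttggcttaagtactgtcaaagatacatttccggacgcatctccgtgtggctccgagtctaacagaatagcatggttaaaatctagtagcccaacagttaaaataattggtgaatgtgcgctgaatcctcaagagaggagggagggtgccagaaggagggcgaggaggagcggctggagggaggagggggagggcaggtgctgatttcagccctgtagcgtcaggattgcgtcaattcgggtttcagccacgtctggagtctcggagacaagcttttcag
Stx7: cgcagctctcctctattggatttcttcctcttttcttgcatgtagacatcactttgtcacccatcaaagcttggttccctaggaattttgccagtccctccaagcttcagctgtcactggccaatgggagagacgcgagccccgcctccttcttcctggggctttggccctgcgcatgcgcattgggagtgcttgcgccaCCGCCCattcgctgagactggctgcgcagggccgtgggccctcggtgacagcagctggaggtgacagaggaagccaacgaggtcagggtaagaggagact
Vamp4: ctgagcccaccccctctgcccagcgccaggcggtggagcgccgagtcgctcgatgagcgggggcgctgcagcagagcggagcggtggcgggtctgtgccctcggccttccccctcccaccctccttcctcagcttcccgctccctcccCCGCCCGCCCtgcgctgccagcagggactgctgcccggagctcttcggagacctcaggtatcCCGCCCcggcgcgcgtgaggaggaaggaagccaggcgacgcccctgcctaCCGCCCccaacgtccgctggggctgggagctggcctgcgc
Vamp1: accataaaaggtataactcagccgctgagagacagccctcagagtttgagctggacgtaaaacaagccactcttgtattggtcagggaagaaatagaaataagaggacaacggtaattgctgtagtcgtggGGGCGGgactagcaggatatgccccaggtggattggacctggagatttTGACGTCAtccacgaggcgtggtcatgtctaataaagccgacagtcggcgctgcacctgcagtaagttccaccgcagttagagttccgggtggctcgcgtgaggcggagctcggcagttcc
The palindrome of the estrogen response element, GGTCA and TGACC with 3 bases between, was found on either strand in 0 of the 27 member promoters and in 0.0269% of all 33469 promoters of that length. Those letters are absent from these windows, which says nothing of sites elsewhere. The cAMP response element stood in Vamp1 alone (3.7% of members, 3.11% of the 10427 promoters of tested genes). A GC box stood in 21 of 27 (77.8%), beside 62.6% of promoters of tested genes. Syt4 held no marked motif, Stx7 held 1 GC box and Vamp4 held 4, overlaps counted.

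**Figure D2:**
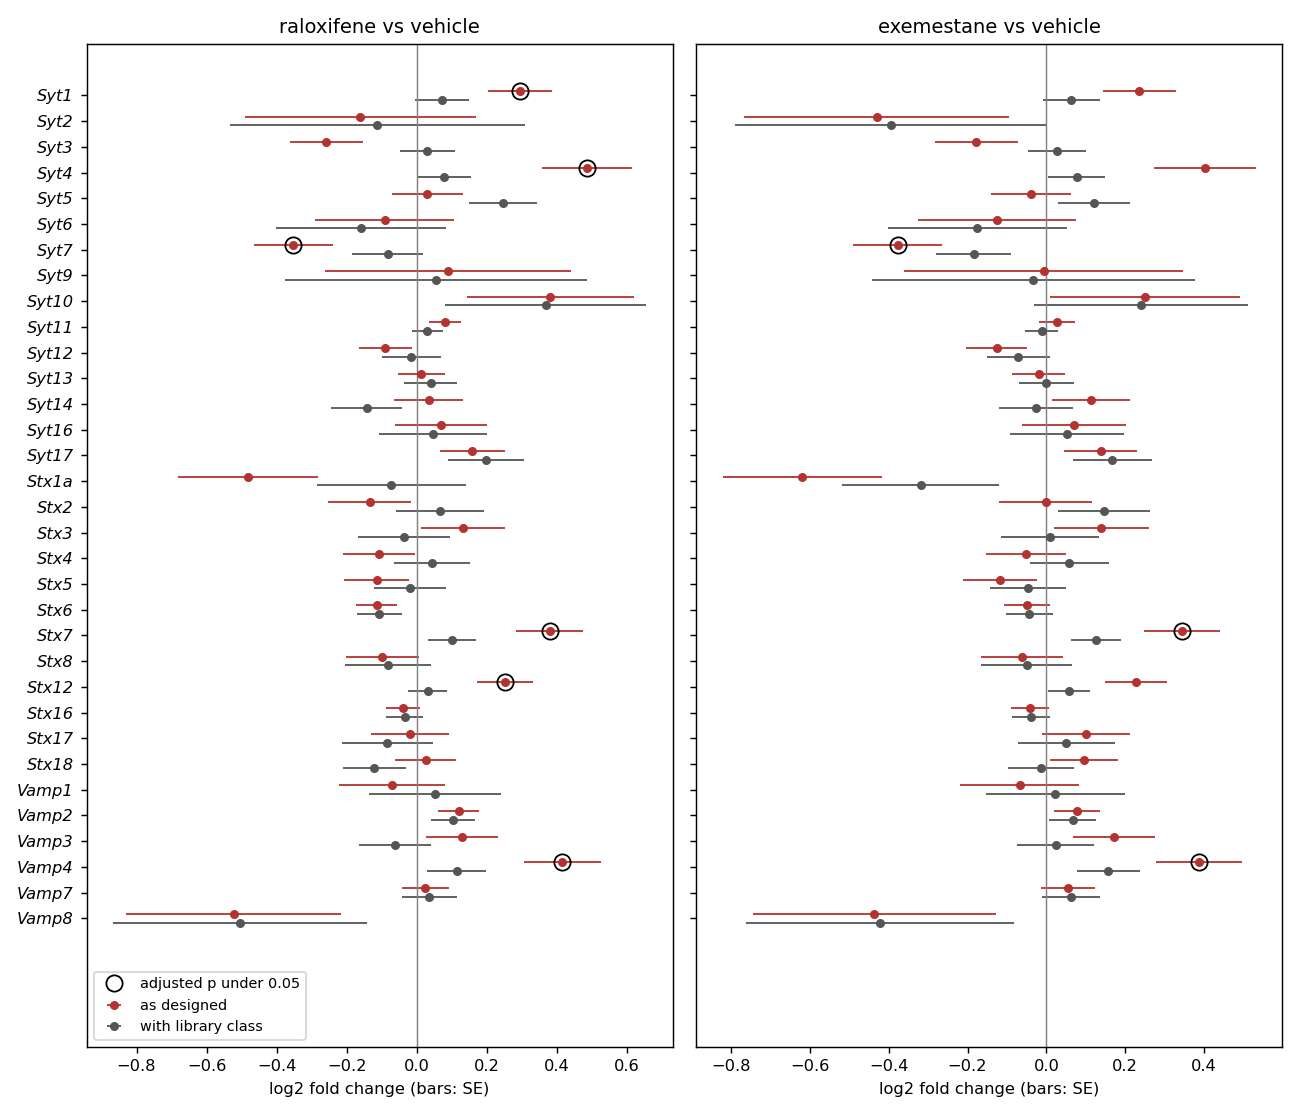
Log2 fold change against vehicle (horizontal axes, bars are SE) of the 33 tested members in raloxifene and exemestane, without library class (red) and with it (grey), with rings around calls at an adjusted p under 0.05. The 6 ringed members in raloxifene and the 3 in exemestane all lie nearer 0 with class, and no grey point is ringed.

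Raloxifene and class A share no library, and vehicle has a single library in class B, so raloxifene was not tested against vehicle within a class. Set beside vehicle replicate 4 alone, all 5 raloxifene libraries lay above it for 12 of 33 members (36.4%, and 24% of all tested genes) and below it for 7 (21.2%, and 20.7% of genes). Of the 6 called members, Syt1, Syt4, Stx7 and Vamp4 were above it and Syt7 below it, while Stx12 overlapped it. Stx7, for example, was at 91.8 CPM there and from 105 CPM upward in raloxifene, and Syt7 at 169 CPM against at most 163. These are comparisons with 1 library and have no replicate check. In class A, exemestane replicate 5 lay above all 4 vehicle libraries for 6 members (18.2%, and 18.6% of genes) and below them for 4 (12.1%, and 18.9%). Vamp4 was above, and Syt7 and Stx7 within the vehicle range.

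Over whole groups, 4 members (12.1%) had all raloxifene libraries above all vehicle libraries, beside 11% of all genes, and 1 member (3.03%) had them below, beside 7.02%. In exemestane Vamp4 alone lay wholly above, beside 1.53% of genes. The median fold of the 33 members was 0.02 in raloxifene and -0.00 in exemestane, and over all tested genes -0.02 and -0.01. Raloxifene calls rested in part on single libraries, with 3 to 8 members called when 1 library was left out. The lowest count came without raloxifene replicate 5 or vehicle replicate 5, where 12.3 and 16.4% of all genes were called, and the highest without vehicle replicate 4, where 31% were. In exemestane 8 members (23.5%) were called without exemestane replicate 5 and 7 (20.6%) without vehicle replicate 4, beside 28.7 and 19.5% of all genes. The filter on low counts was run anew in each such fit, and these 2 fits tested 34 members. Without any of the other 8 libraries 0 members and 0% of all genes were called.

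Markers of 9 cell types or regions were read beside the members. Across all tested genes 11.4% fell and 13.4% rose in raloxifene, and 2.45% fell and 4.06% rose in exemestane. Of 8 oligodendrocyte markers, 4 fell in raloxifene and 4 in exemestane, with Mbp at a fold of -0.47 ± 0.109 in raloxifene (edgeR adjusted p = 0.0111). Their summed level was 6005 to 7345 CPM in vehicle, 4978 to 5881 in raloxifene and 4668 to 6408 in exemestane, and none of the 8 was at 0 in any library. The median fold of that list was -0.31 in raloxifene and -0.30 in exemestane, and -0.25 and -0.32 with class. It was -0.29 in estradiol, -0.28 in anastrozole, -0.23 in tamoxifen and -0.16 in sham, where 0 of the 8 were called. Of 7 neuron markers, 2 rose in raloxifene (Elavl4 and Map2) and 1 in exemestane (Elavl4), while 3 of the 7 folds were positive in each and the medians were -0.03 and -0.07. Their sums were 3877 to 4365 CPM in vehicle, 4441 to 4733 in raloxifene and 4243 to 4939 in exemestane. Of 8 interneuron markers, 3 rose (Gad1, Gad2 and Vip) and 1 fell (Slc32a1) in raloxifene, and 0 were called in exemestane. Of 7 microglia markers, 0 were called in raloxifene and 2 fell in exemestane, with sums of 168 to 246 CPM in vehicle, 173 to 201 in raloxifene and 163 to 187 in exemestane. In raloxifene 1 of 8 astrocyte markers rose and 1 fell, and 1 marker rose in each of the endothelial, thalamus and dentate granule cell lists. In exemestane 1 endothelial marker fell and 1 dentate granule cell marker rose, and the choroid plexus list had 0 calls in both. With class, 0 markers of the 9 lists were called in raloxifene or exemestane. Their part in the members' values was not tested.

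The drugs of each kind were set against each other, although their doses differed. Between tamoxifen and raloxifene edgeR and DESeq2 called 0 members, beside 0% of all genes in edgeR. There 0 members had an unadjusted edgeR p under 0.05, beside 8.41% of all genes. The smallest p was that of Vamp4, with a difference of -0.21 on the log2 scale (95% interval -0.43 to 0.01, edgeR adjusted p = 0.587). For Syt3 it was 0.16 (-0.05 to 0.37) and for Stx12 -0.12 (-0.28 to 0.04). With class these differences were -0.08 (-0.23 to 0.07), 0.00 (-0.14 to 0.15) and -0.02 (-0.12 to 0.08).

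Between exemestane and anastrozole edgeR called 0 members, beside 0% of genes. An unadjusted edgeR p under 0.05 was found for 7 members (21.2%), beside 27.1% of all genes. DESeq2 called 3 members, and its share of all genes is not given here. Vamp4 in anastrozole was at 35.1, 36.2, 50.5, 51.0 and 38.8 CPM, and the libraries at 50.5 and 51.0 were its class B libraries. The difference of exemestane from anastrozole was 0.35 for Vamp4 (95% interval 0.13 to 0.57, edgeR adjusted p = 0.0901), 0.27 for Stx7 (0.08 to 0.47, adjusted p = 0.0977) and -0.57 for Stx1a (-0.98 to -0.16, adjusted p = 0.0977). With class they were 0.21 (0.06 to 0.37), 0.13 (0.01 to 0.25) and -0.37 (-0.75 to 0.01), with adjusted p of 0.193, 0.341 and 0.414. edgeR called 8 members without exemestane replicate 5, 6 without anastrozole replicate 4 and 3 without anastrozole replicate 3, where 23.8, 18.6 and 10.6% of all genes were called.

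**Figure D3:**
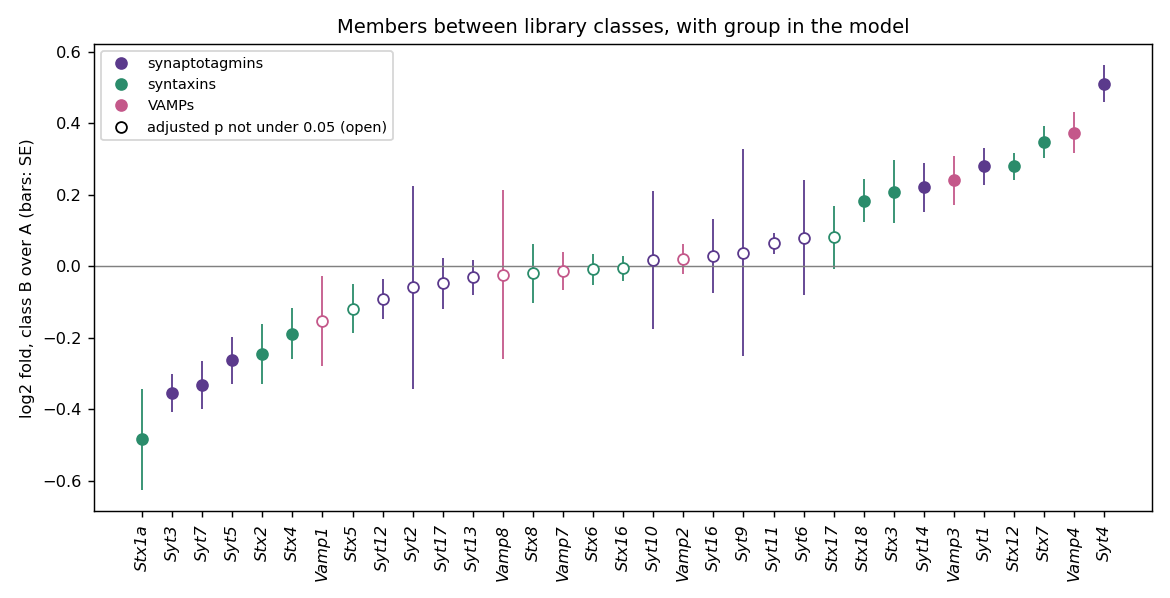
Log2 fold between library classes, B over A (vertical axis, bars are SE), of the 33 tested members with group in the model, in order of fold and coloured by family, with filled points for an adjusted p under 0.05. Syt4 is at the upper end at 0.51 and Stx1a at the lower end at -0.48, and the members called on each side come from both synaptotagmins and syntaxins.

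Between library classes, with group in the model, 15 of 33 members (45.5%) were called, 9 higher in class B and 6 lower, beside 51.9% of all genes (25.5% and 26.3%). The folds were largest for Syt4, at 0.51 ± 0.0517 (edgeR adjusted p = 2.83e-10), Vamp4 at 0.37 ± 0.0573 (1.09e-06) and Stx7 at 0.35 ± 0.0455 (5.72e-08) upward. Downward they were largest for Stx1a at -0.48 ± 0.142 (adjusted p = 0.0053), Syt3 at -0.35 ± 0.0523 (5.38e-07) and Syt7 at -0.33 ± 0.0673 (0.000103). By role, 3 of the 4 tested plasma membrane syntaxins were lower in class B (Stx1a, Stx2 and Stx4) and Stx3 was higher. Of the 8 syntaxins of internal membranes, 3 were higher (Stx7, Stx12 and Stx18) and 0 lower. Of the 8 calcium sensors, Syt1 was higher and Syt3, Syt5 and Syt7 lower, and of the 7 other synaptotagmins Syt4 and Syt14 were higher. Neither synaptic VAMP was called, and Vamp3 and Vamp4 of the 4 others were higher. The classes did not overlap at all for 3 members, Syt1, Stx7 and Stx12, all higher in class B (9.09%, and 6.61% of genes), and for 0 that were lower (3.8% of genes).

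Several members lay apart in sham replicate 1. Of the 33 tested, 5 were higher there than in all other 34 libraries (Syt2, Syt6, Syt9, Vamp1 and Vamp8). Another 8 were lower (Syt1, Syt5, Syt7, Syt11, Syt16, Syt17, Vamp2 and Vamp7). The share of all genes that lay apart in this library is not given here, so these counts are no result about the members in particular. Vamp1 made up 40.5% of the summed counts of Vamp1 plus Vamp2 in that library and 15.8 to 20.9% elsewhere. Syt2 made up 11.6% of the summed counts of Syt2 plus Syt1 there, and 0.973 to 2.90% elsewhere. These counts are not scaled for gene length, so the shares are not proportions of transcripts. Against vehicle the sham folds were 0.79 ± 0.323 for Syt2, 0.83 ± 0.336 for Syt9 and 0.36 ± 0.151 for Vamp1, none past the threshold (edgeR adjusted p = 0.623, 0.617 and 0.636). Without that library they were -0.07 ± 0.163, 0.08 ± 0.264 and 0.01 ± 0.0712 (adjusted p = 0.979, 0.985 and 0.993). In that fit edgeR called 0 members, beside 0.0276% of all genes. An unadjusted edgeR p under 0.05 was found for 3 members, beside 882 of the 14485 genes tested there. Stx6 then had a fold of -0.16 ± 0.0617 (adjusted p = 0.751) and Syt17 of 0.25 ± 0.0715 (adjusted p = 0.539).

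**Figure D4:**
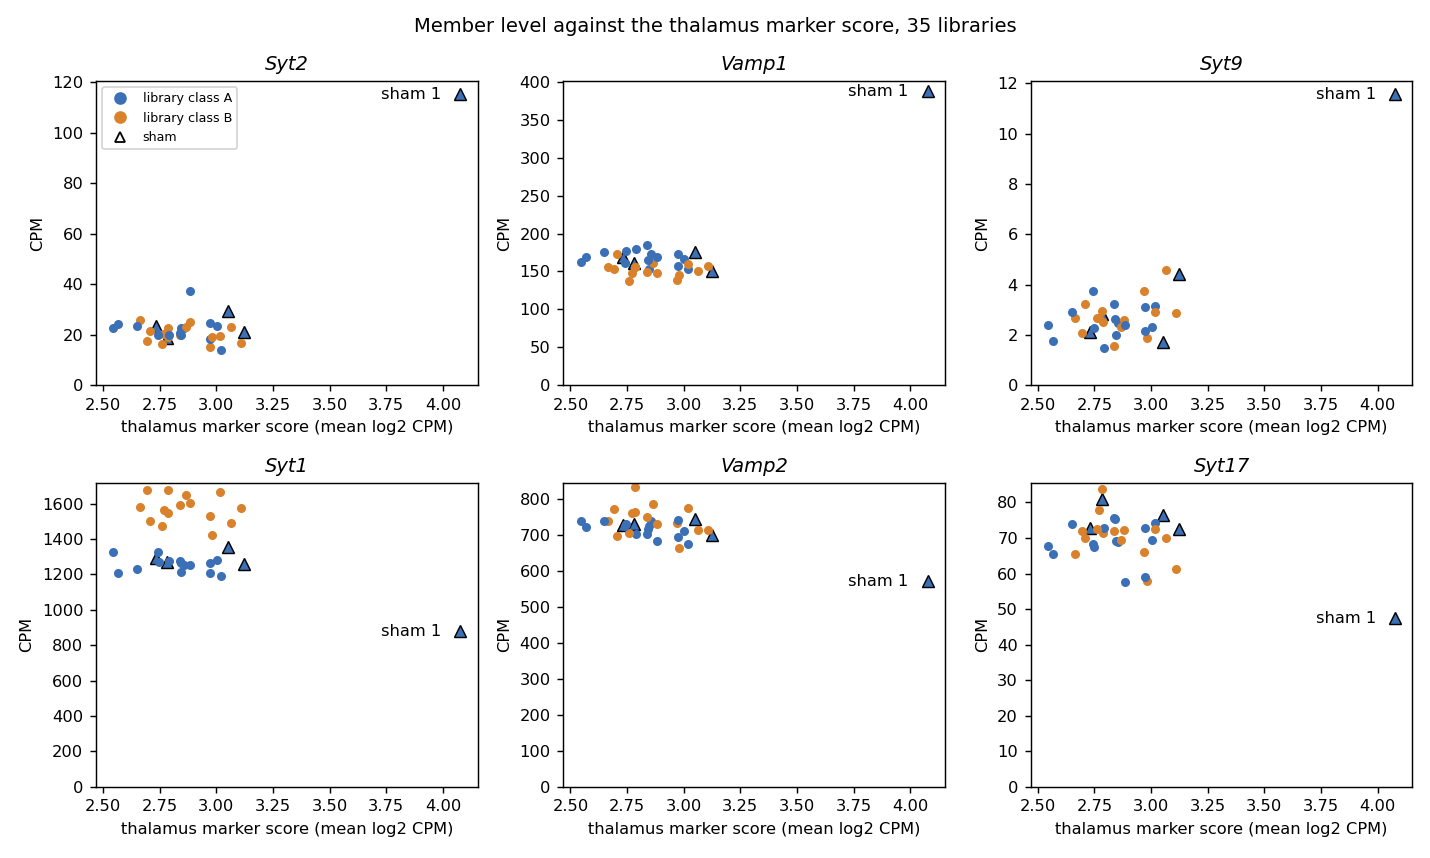
CPM of 6 members (vertical axes, from 0) against the thalamus marker score (horizontal axes, mean log2 CPM of 9 genes) in 35 libraries, coloured by class, with triangles for sham. Sham replicate 1, at a score of 4.08, lies high for Syt2, Vamp1 and Syt9 and low for Syt1, Vamp2 and Syt17.

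The thalamus score, the mean log2 CPM of 9 tested marker genes, was 4.08 in sham replicate 1 and had a median of 2.84 over the 35 libraries. In that library 4 of the 9 markers were above all other 34 libraries (Tcf7l2, Slc17a6, Lef1 and Slitrk6), and 2, Prkcd and Ramp3, were below the other sham libraries. Of 8 oligodendrocyte markers, 4 were above all other libraries as well (Mbp, Mag, Mobp and Olig2), and of 8 choroid plexus markers 0 were. Over all libraries Spearman's rho with the score passed for 0 of 33 members after Benjamini-Hochberg adjustment (permutation test, 4 at an unadjusted p under 0.05), and Pearson's r passed for 7. Without the 2 libraries farthest from the median score, sham replicate 1 and tamoxifen replicate 1, both passed for 0, so the relation rested on those libraries. Vamp2 had rho of -0.33 and r of -0.67, and Syt11 rho of -0.39 and r of -0.45. The next largest rho were -0.39 for Stx18 (r of -0.33), 0.39 for Stx17 (r of 0.21) and -0.34 for Stx6 (r of -0.57). Within class A rho passed for 0 and r for 7 members, and within class B both passed for 0. The mean log2 CPM of 5 dentate granule cell markers was 4.69 in sham replicate 1, the lowest of the 35 libraries. Its median over all libraries was 5.46. The parts of thalamic tissue and of dentate granule cells in the sham values were not tested.

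The partners of these proteins were read from 4 lists. Of 14 tested partner SNAREs, 2 were higher and 1 lower in raloxifene, with Bet1 of traffic from endoplasmic reticulum to Golgi at a fold of 0.51 ± 0.177 (edgeR adjusted p = 0.0343), Sec22b at 0.21 ± 0.0673 (0.0246) and Snap47 at -0.29 ± 0.0917 (0.0229). Across all genes 13.4% were higher and 11.4% lower in raloxifene. Of 16 genes for SM proteins, tomosyns and SNARE disassembly, 4 were higher and 0 lower. Among them Napg and Napb, adaptors that help take spent SNARE complexes apart, had folds of 0.40 ± 0.0925 and 0.29 ± 0.0746 (adjusted p = 0.0113 and 0.0131), and the tomosyn Stxbp5l 0.34 ± 0.107 (0.0234). Napg also rose in exemestane, at 0.32 ± 0.0926 (edgeR adjusted p = 0.0454), the 1 gene of that list called there.

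Of 22 complexins, priming factors and related C2 proteins, 1 was higher and 3 lower in raloxifene, with the calcium sensor Doc2b at -0.50 ± 0.16 (edgeR adjusted p = 0.0256) and Otof at -0.34 ± 0.12 (0.0383). Sytl5 was higher in raloxifene at 0.38 ± 0.143 (adjusted p = 0.049) and in exemestane at 0.54 ± 0.143 (adjusted p = 0.0403). Of 21 other vesicle membrane proteins, 2 were higher and 3 lower in raloxifene, among them the GABA transporter Slc32a1 at -0.56 ± 0.157 (adjusted p = 0.0154) and the synaptogyrins Syngr1 at -0.40 ± 0.151 (0.0484) and Syngr2 at -0.65 ± 0.226 (0.0356). In exemestane Syngr2 alone was called, at -0.85 ± 0.23 (adjusted p = 0.0426). With class, 0 genes of the 4 lists were called in either comparison. Between the classes 5 and 3 partner SNAREs, 7 and 1 of the SM list, 2 and 7 of the complexin list and 4 and 12 of the other vesicle proteins were higher and lower in class B, beside 25.5 and 26.3% of all genes.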

How the data were processed

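Expression was read from 2 tables that the authors deposited for 35 libraries of rat hippocampus. The first, as the authors deposited it, holds expected counts per gene made before any scaling for depth, held as whole numbers, with 15059 genes that each have counts in at least 8 libraries. The second, deposited by the authors as a normalized signal, gives those counts after division by factors, different for each gene in each library, and was used for those factors only. The submitters' processing notes name Salmon and DESeq2, with no versions. The genome build and annotation are not given in the sources used here.

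The quasi-likelihood F-test of edgeR 4.0.16 (R 4.3.3), in its robust form, was run on the counts of all 35 libraries, with TMM scaling and the filter filterByExpr set by group. Adjusted p is Benjamini-Hochberg over the 14411 tested genes, with a threshold of 0.05. Standard errors come from the fold and its F statistic, and 95% intervals from its t distribution. CPM uses TMM-scaled totals and is not scaled for gene length, so levels of different genes are not read against each other. Ranks by mean CPM served only to choose members to name. The shares of Vamp1 and Syt2 in summed counts carry the same limit and are read between libraries only. The script was tested on simulated counts. Library spread exceeded counting error, with a common biological coefficient of variation of 0.152. Over the groups and tested members, the chi-square of replicates per degree of freedom had a median of 4.81 and a lowest value of 0.985, so replicates were not copies of 1 library.

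The class of a library is the sign of the first component of the log ratio of the 2 tables over 14326 genes, with 72.3% of the variance and 1.69% for the next component. DESeq2 1.42.0, other scalings and filters, class as a term, single classes and leaving out each library were the alternatives. Correlations with the thalamus score used 100000 permutations. Within groups, replicate numbers only name libraries.

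A gene that the naming rule takes is not reported here and is left out of all counts of members, but stayed in every fit. The members and lists were chosen with earlier results of these data known. Members named with values are the 2 with the highest mean CPM per family, 7 well-known members, up to 6 called members per comparison with the largest folds (or the 3 of smallest p where fewer than 3 were called), the 5 of smallest p among groups, the 6 of largest fold between classes and the 5 of largest rho. From each partner list up to 3 called genes per comparison are named. Other members and markers were named after their values were seen.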

Additional observations from a re-analysis of the deposited data

Results flagged for a closer look

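In 126 groups of 5 libraries, taken from 18 named members, the highest or lowest library was checked for a gap to the rest. The limit was Dixon's 95% critical value of 0.71, and 12 were past it. Members were named in part from these data and share the same libraries. The checks are thus neither unselected nor independent, and no chance rate is set beside the 12. Of these, 6 were sham replicate 1, with Syt1 at 880 CPM, Vamp2 at 572, Vamp1 at 389, Syt2 at 115, Syt9 at 11.6 and Syt17 at 47.5. Another 2 were exemestane replicate 5, the class A library of that group, with Syt4 at 164 CPM and Syt7 at 187. Estradiol replicate 2 had Syt4 at 205 CPM. The others were Syt4 in sham replicate 5 at 197 CPM, Stx1a in raloxifene replicate 4 at 58.5 and Vamp3 in tamoxifen replicate 1 at 25.03.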

How the results depend on the processing

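Raloxifene called 6 members, 3 with the authors' per-gene factors and 0 with library class, where 3568, 924 and 1 of all genes were called. Those factors moved the share of higher calls among all raloxifene calls from 54.1% to 68.8%. Exemestane called 3, but 6 with DESeq2, 5 with a mean of at least 50 counts, 0 with the authors' factors, 0 with class and 0 with the libraries of these 2 groups alone. Of all genes, 938 were called in exemestane, and 134 with the authors' factors. Exemestane against anastrozole called 0, and 3 with DESeq2. Any difference called 9, 4 with the authors' factors and 0 with class, and the classes 15, 5 with those factors. The thalamus score called 0 by rho and 7 by Pearson's r. Leaving out 1 library gave 3 to 8 calls in raloxifene, 0 to 8 in exemestane and 0 to 8 for exemestane against anastrozole. Tamoxifen had 0 to 2, and the 2 (6.06%) came without tamoxifen replicate 2, beside 4.01% of all genes. The other comparisons had 0, and with class all had 0. Beyond the alternatives named, the counts of calls stayed within 1.5 times. Where the share of all genes is not given beside a count, the count is no result about the members in particular. The causes were not tested.

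Of 33 named folds, 33 kept direction and call with DESeq2 size factors and 33 with no filter. DESeq2 called 3 more. The named folds that held a call were the 6 in raloxifene, the 3 in exemestane and the 6 between the classes. The authors' factors lost 8 of these calls. Class as a term lost all 9 of the raloxifene and exemestane calls. The folds that follow reversed. Syt2 in sham ran from -0.069 without sham replicate 1 to 1.01 over the libraries left out (from -0.081 with class). Syt4 in tamoxifen was -0.034 in class A alone. With class and without vehicle replicate 4, raloxifene folds were -0.031 for Syt4 and -0.0050 for Vamp4. In class B alone, chosen after seeing the data, tamoxifen against raloxifene was -0.019 for Syt3 and 0.012 for Stx12. With class, Syt3 was -0.020 and -0.044 without tamoxifen replicates 1 and 3, and -0.031, -0.0064 and -0.013 without raloxifene replicates 1, 2 and 4. Stx12 was 0.00678 without tamoxifen replicate 4 and 0.022 without raloxifene replicate 5.

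Vamp8, Syt9 and Syt10, at under 12 CPM, are limited by depth. No paired analysis was possible because the labels carry no shared replicate numbers. Raloxifene against vehicle within 1 class was not run, since vehicle has 1 library in class B.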

Other observations

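The members together took 0.433 to 0.487% of counts in class A libraries and 0.478 to 0.518% in class B. These sums do not stand for the members one by one. With group in the model, 16 of the 33 tested had a log2 fold above 0 in class B over A, and the median was -0.0052.

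Among members with a promoter entry, the median GC content was 62.0% for the 8 that were higher in class B, 66.3% for the 4 that were lower and 56.3% for the 13 that were not called, and 61.3% over promoters of all tested genes. Of the 8 higher members 5 held a GC box, as did 4 of the 4 lower and 10 of the 13 not called.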
